A study of Mus musculus with 20 samples.

Results

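Flaxseed feeding before thoracic irradiation was examined in the lungs of 10 of the 20 C57BL/6 mice of the study, an inbred laboratory strain. All 10 received 13.5 Gy of radiation and were killed 48 h later, and they were chosen by their treatment label alone. In 5 of them the radiation followed 3 weeks (21 days) on a diet with 10% flaxseed, and the other 5 had radiation without flaxseed. The remaining 10 mice, 5 untreated and 5 fed flaxseed without radiation, entered the model that estimated the spread and served for 1 comparison. Each mouse had 1 array of 9600 spots, hybridised with total RNA labelled with 33P. For age, sex and the diet of mice without flaxseed the sources used here give nothing.

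Flaxseed is the seed of the flax plant, rich in the plant fatty acid alpha-linolenic acid and in lignans, plant polyphenols whose gut metabolites reach the blood. Ionising radiation breaks DNA and forms reactive oxygen species, and the irradiated lung can develop inflammation (pneumonitis) over the following weeks and scarring (fibrosis) later. The question addressed here was whether the diet changed the lung transcripts that were measured within days of the exposure. Spots carry running numbers only, and the files do not pair these with genes, so no pathway or cell type can be named and the labelled tissue was not checked against marker genes. At most 2 spots per direction are named for each comparison unless stated.

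The 10 arrays were of like quality. Median signal minus local background ranged from 91.2 to 172 in irradiated mice and from 84.6 to 138 in mice given flaxseed and radiation. Correlations between the log2 values of any 2 of the 10 arrays lay between 0.968 and 0.981, with a mean of 0.976 within and 0.975 between the groups. None of 6 whole-array measures differed between the groups after adjustment over the 6 exact two-sided permutation tests, for which 5 against 5 mice allow no p below 0.00794. The measure nearest to the threshold was the first principal component of the 10 arrays, which held 16.7% of their variance. Its scores were -0.459, -19.6, 1.71, -4.48 and -10.4 in irradiated mice and 12.7, 5.7, 0.748, 6.43 and 7.56 in mice given both (exact permutation p = 0.0159, adjusted p = 0.0952). The groups overlapped in 1 mouse of each.

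One spot, gene0020, was higher in irradiated lung of flaxseed-fed mice than of mice without flaxseed, and it was the 1 spot of 9600 that passed the test, or 0.0104% (limma, Benjamini-Hochberg adjusted p under 0.05). The count of lower calls with limma was 0. At an unadjusted p under 0.05 limma had 717 spots (7.47%), of which 310 (3.23%) were higher and 407 (4.24%) lower. That split depended on how arrays were scaled to each other, with 404 higher and 238 lower after median scaling. In whole lung, fewer cells of a type and less RNA per cell cannot be told apart.

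The raw signals of gene0020 in the 5 irradiated mice were 58.6, 49.7, 43.2, 68.5 and 33.4 intensity units, over local backgrounds of 31.3, 16.9, 17.2, 27.3 and 20.9. In the 5 mice given flaxseed and radiation the signals were 103, 175, 126, 194 and 177, over backgrounds of 31.1, 31.6, 18.7, 33.5 and 72.9. Every flaxseed-fed mouse was thus brighter than every other irradiated mouse at this spot. The ratio of signal to local background did overlap, at 1.59 to 2.94 without and 2.43 to 6.76 with flaxseed, the lowest of the latter being the mouse with a background of 72.9.

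After background correction and quantile normalisation, the log2 levels of gene0020 were 6.44, 6.50, 6.58, 6.51 and 6.23 in irradiated mice, a mean of 6.45 ± 0.13 (SD, n = 5). They were 7.42, 7.82, 7.62, 7.83 and 7.30 in mice given both, a mean of 7.59 ± 0.24 (SD, n = 5). The groups did not overlap. The difference was 1.14 on the log2 scale (SE 0.154, limma adjusted p = 0.00344), or 2.21-fold with a 95% interval of 1.77 to 2.76. In the authors' deposited table, which divides the background-subtracted signal by its median over the array, gene0020 stood at 0.194, 0.258, 0.28, 0.239 and 0.136 in irradiated mice and at 0.848, 1.29, 1.06, 1.3 and 0.752 in mice given both. The spot was thus well below the typical spot of the array in the first group and close to it in the second.

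The level of gene0020 after both treatments, from 7.30 to 7.83, overlapped that of untreated mice, from 7.59 to 8.25. The 5 mice on flaxseed without radiation had 5.87, 6.01, 6.51, 6.57 and 6.62, which overlapped the irradiated mice. Low levels were therefore seen in mice with either treatment alone, and higher levels in mice with neither or both. Plain background subtraction gave gene0020 a difference of 2.32 that did not pass (SE 0.723, limma adjusted p = 0.560). In log2 values of the authors' deposited table the difference was 2.26 and did not pass either (SE 0.968, limma adjusted p = 0.492). Both the difference and its error were larger in these settings. The error rests on the spread within all 4 groups, not only the irradiated ones. In the authors' deposited table the mice on flaxseed alone had 0.002, 0.025, 0.247, 0.28 and 0.293 at gene0020. The part of these values in the error was not tested. With an offset of 200 added to the corrected signals the difference was 0.54 and remained called.

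**Figure D1:**
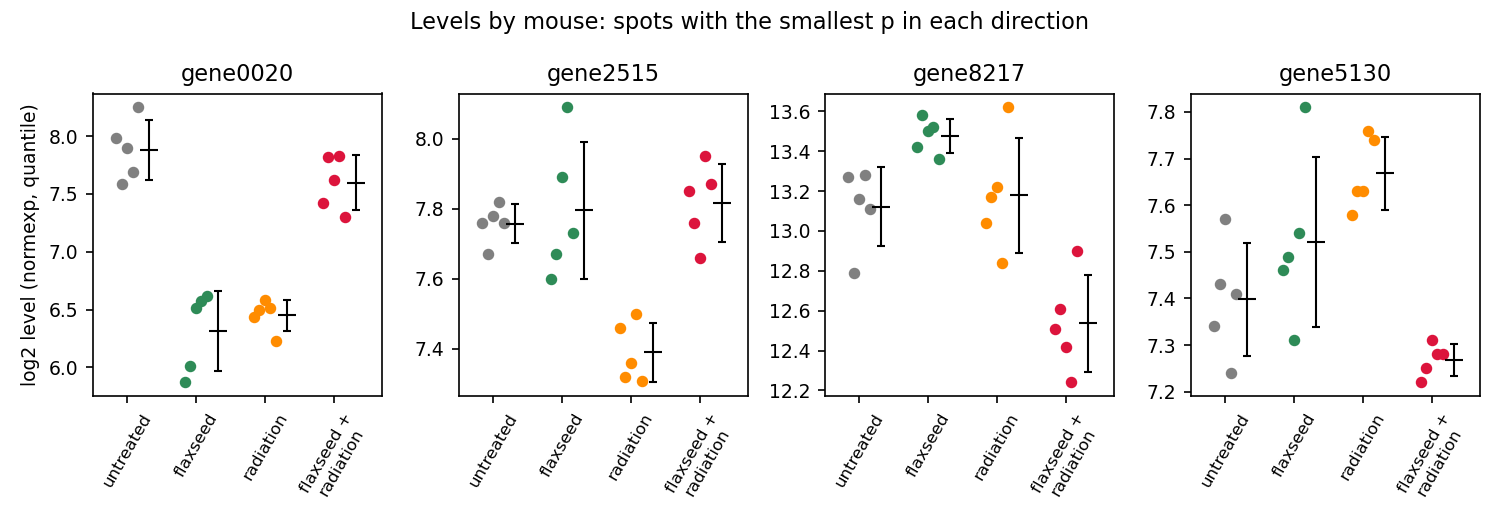
Log2 level of 4 spots in each of the 20 mice, with 1 point per mouse and the mean ± SD of the 5 mice of each group beside it. In gene0020 the 5 mice given flaxseed and radiation sit between 7.30 and 7.83, all above the irradiated mice, and the vertical scales differ between panels.

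The other spots with the smallest p in each direction did not pass the test. The level of gene2515 was 7.46, 7.32, 7.36, 7.50 and 7.31 in irradiated mice and 7.85, 7.76, 7.66, 7.95 and 7.87 in mice given both. These groups did not overlap, and the log2 difference was 0.43 (SE 0.0862, limma adjusted p = 0.261). The flaxseed-fed irradiated mice lay within the range of the 10 unirradiated mice, 7.60 to 8.09, and the irradiated mice without flaxseed below it.

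The bright spot gene8217 had levels of 13.04, 13.17, 13.22, 12.84 and 13.62 in irradiated mice and 12.51, 12.61, 12.42, 12.24 and 12.90 in mice given both. One of the latter, at 12.90, lay above the lowest irradiated mouse, and the difference was -0.64 (SE 0.134, limma adjusted p = 0.261). The spot gene5130 had 7.58, 7.63, 7.63, 7.76 and 7.74 against 7.22, 7.25, 7.31, 7.28 and 7.28, without overlap. Its difference was -0.40 (SE 0.0837, limma adjusted p = 0.261). Among the 20 spots with the smallest p, 15 were lower and 5 higher with flaxseed, and the differences ran from 0.34 to 1.14 in size.

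Differences across the whole array were small. The median size of the log2 difference over the 9600 spots was 0.0985 and 95% of spots differed by less than 0.326. A difference of 2-fold or more was measured in 4 spots and one of 1.5-fold or more in 30, of which 15 were higher and 15 lower with flaxseed. Since a p above the threshold does not show that levels were equal, the 95% interval of each difference was taken. It lay within a 2-fold change in either direction for 9512 spots (99.1%) and within a 1.5-fold change for 8354 (87.0%). For the other 88 spots the interval reached beyond 2-fold. The first share was 83.3% with plain subtraction, and 79.9% in log2 values that the authors deposited.

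Precision fell with brightness on this scale. Among the 2400 dimmest spots the median SE of the difference was 0.0903 and 97.0% of the intervals lay within 1.5-fold. In the 2400 brightest the median SE was 0.169 and 71.3% did. The offset of 50 narrows the spread of dim spots and understates their changes. The spread between mice was the same in both groups, with a median SD over spots of 0.180 in each.

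The 4 spots that differed at least 2-fold include 3 that were not called and that were chosen after their values were seen. The largest was gene0024, with raw signals of 2170, 1140, 837, 3150 and 220 in irradiated mice and 237, 292, 299, 278 and 220 in mice given both. Of the irradiated mice 4 were high and 1 was not, so the groups overlapped, and the log2 difference was -2.02 (SE 0.587, limma adjusted p = 0.509). Mice on flaxseed alone also fell apart in this spot, at 268, 2010, 1960, 371 and 1410, as did untreated mice at 364, 1020, 268, 809 and 244. High and low mice thus occurred in 3 of the 4 groups, and the 5 mice given both treatments were all low. The spot gene9173 was high in 2 of the 5 mice given both, at log2 levels of 9.24 and 9.51, while the other 3 had 6.84 to 6.89 and the irradiated mice 6.14 to 7.45 (difference 1.11, SE 0.492, limma adjusted p = 0.633). In gene7225 the difference of -1.22 came from 1 irradiated mouse at 11.68, with 5.67 to 6.42 in the other 9 mice (SE 0.737, limma adjusted p = 0.754).

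**Figure D2:**
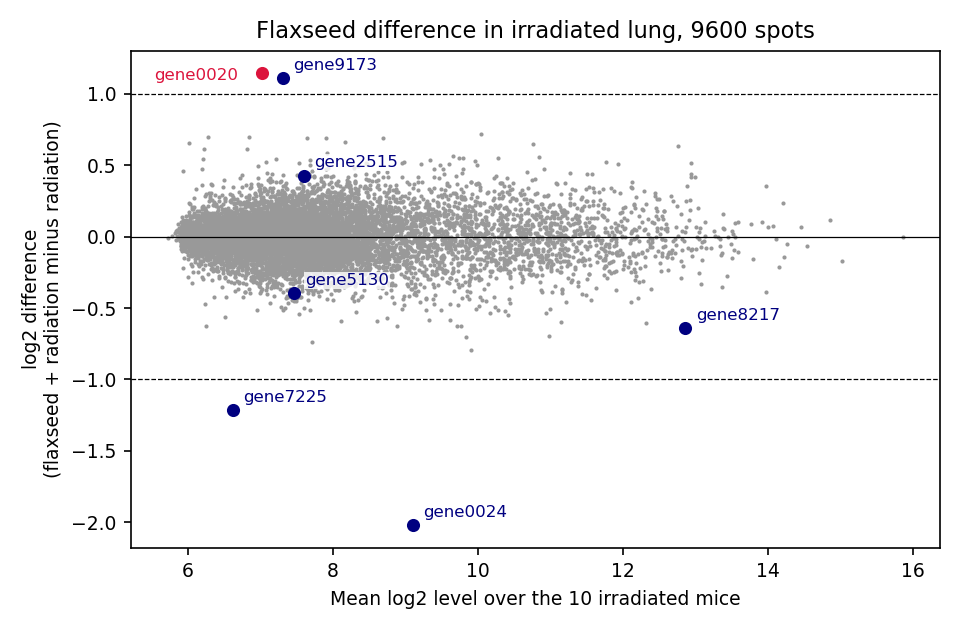
Log2 difference between mice given flaxseed and radiation and irradiated mice (vertical axis) against the mean log2 level over the 10 mice (horizontal axis), 1 point per spot. The red point is gene0020, the 1 called spot, and dashed lines mark 2-fold, which 4 spots exceed. Blue points are uncalled spots with the smallest p in each direction or with at least a 2-fold difference. Other spots named in the text are grey.

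In 122 spots (1.27%) the 5 mice of one group all lay beyond the 5 of the other. Flaxseed-fed mice were higher in 62 of them (0.646%) and lower in 60 (0.625%). The gap between the nearest mice of both groups was 0.72 on the log2 scale in gene0020, and at most 0.23 in the other higher spots. In the lower spots it was at most 0.27, in gene5130. The median gap was 0.04 in both directions, so most of these separations were narrow. The median difference was 0.32 in the higher and -0.30 in the lower spots.

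The spots without overlap were not spread evenly over the array. File order and spot numbers give a grid of 80 rows and 120 columns, an inference from the files, in which local backgrounds correlated at 0.495 between spots side by side and at 0.475 between spots 1 row apart. The differences between the groups correlated as well, at 0.235 and 0.216, and so did deviations of single mice from their group mean, at 0.238 and 0.211. Of the 60 lower spots, 56 lay in the inner 72 columns and 4 in the 24 columns at either edge, which hold 3840 spots. The 62 higher spots divided into 36 and 26, or 0.625% of the inner and 0.677% of the outer spots. Within the inner columns the higher spots were uneven by row, with 28 in the first 40 rows (0.972%) and 8 in the last 40 (0.278%). The lower spots there went the other way, with 18 (0.625%) and 38 (1.32%). The median difference was -0.0243 in the inner and 0.038 in the outer columns, and -0.0562 in the last 40 rows of the inner columns. The boundaries of these zones were chosen after the map was seen.

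**Figure D3:**
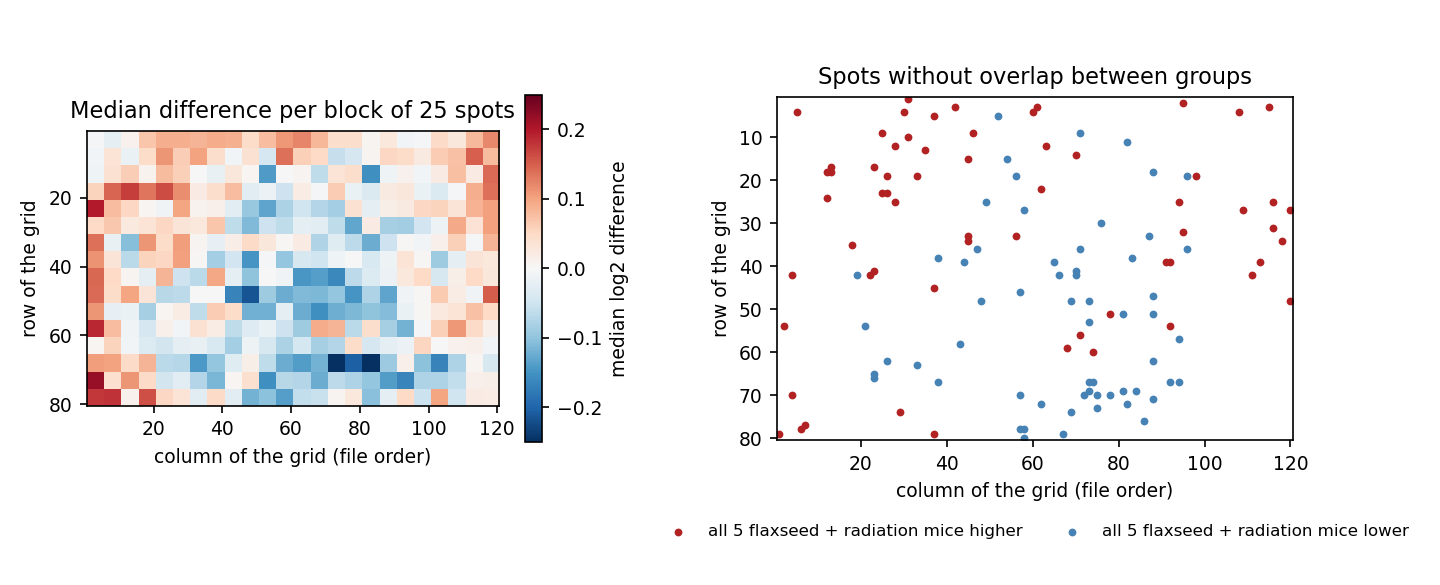
Position on the inferred grid of 80 rows and 120 columns, with the median log2 difference of each block of 25 spots on the left and, on the right, the 122 spots whose groups did not overlap. Lower spots gather in the middle and lower part of the array, and 56 of 60 lie in the inner columns. Higher spots lie at like shares in the inner (0.625%) and outer columns (0.677%). Within the inner columns, 28 higher spots lie in the first 40 rows and 8 in the last 40.

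The difference of inner minus outer columns was -0.02, 0.10, -0.03, 0.08 and 0.06 in the 5 irradiated arrays and -0.04, 0.04, 0.00, -0.04 and -0.03 in those of mice given both, on the log2 scale. These ranges overlap, and 3 irradiated arrays were higher in the middle than every array of mice given both. Of the 8 spots around gene8217, all 8 were lower with flaxseed, by 0.24 to 0.47, and 4 of them had an unadjusted p under 0.05. Of the 20 spots with the smallest p, 6 lay within 5 rows and 5 columns of gene8217. Around gene5130, 7 of 8 neighbours were lower, with a median of -0.08. Around gene0020, 6 of 8 neighbours were lower, with a median of -0.20, while gene0020 itself was higher. One of those neighbours is gene0024.

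When each value was centred on its 5 x 5 block of the array, an alternative chosen after seeing the data, gene8217 differed by -0.35 (SE 0.11, limma adjusted p = 0.60) and gene5130 by -0.22 (SE 0.0812, limma adjusted p = 0.682). For gene0020 the difference was 1.17 (SE 0.158, limma adjusted p = 0.00266) and for gene2515 it was 0.42 (SE 0.0794, limma adjusted p = 0.163). After this centring 79 spots were higher and 45 lower without overlap, and 34 of these 124 were among the 122 before it. The part of position in any of these differences was not tested.

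Spots called for radiation over both diets differed little between the irradiated groups. With radiation averaged over the diets, 601 spots (6.26%) were called in the same fit, and none of these was called for flaxseed in irradiated mice, a count of 0 with limma against 1 over all spots. Averaging can leave out spots whose radiation difference has opposite signs on the diets. In gene0020 it was -1.43 without flaxseed (limma adjusted p = 5.24e-05) and 1.28 with flaxseed (limma adjusted p = 0.000156). The choice of the 601 spots thus left out the 1 spot called for flaxseed, and the count of 0 is no finding. Of the 601 spots, 47 or 7.82% had an unadjusted p under 0.05, against 7.47% of all spots. The median difference was 0.0602 in the 346 spots raised by radiation, 66.5% of which were higher with flaxseed, and -0.00791 in the 255 lowered spots, against 0.00169 and 50.4% over all 9600. Spots are not independent of each other, and whether these shares differ was not tested. In 597 of the 601 the interval lay within 2-fold. Of the 4 not inside it, 3 were among the 14 spots that radiation lowered at least 2-fold.

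A pair of the lowered spots is given here by mouse. The spot gene6080 had the smallest p for radiation, and its levels were 6.96, 6.98, 7.05, 6.96 and 7.06 in irradiated mice and 6.97, 6.80, 7.05, 6.99 and 6.95 in mice given both, against 7.57 to 7.82 in untreated mice. The flaxseed difference in the irradiated mice was -0.05, with a 95% interval of -0.21 to 0.11. In gene2864 the levels were 8.39, 8.57, 8.81, 8.60 and 8.11 against 8.45, 9.45, 8.01, 8.08 and 8.46, and the interval was -0.50 to 0.49. One mouse given both, at 9.45, was the highest of the 10, and the untreated mice had 9.14 to 10.19. Mice on flaxseed alone had means of 8.14 in gene6080 and 10.49 in gene2864, against 7.71 and 9.66 in untreated mice. The radiation difference was therefore -0.71 without and -1.19 with flaxseed in gene6080, and -1.17 and -2.0 in gene2864. Neither spot was called for the interaction (limma adjusted p = 0.0718 and 0.293).

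Of the spots called higher for radiation over the diets, gene1544 had levels of 12.29, 11.85, 11.91, 12.21 and 11.63 in irradiated mice and 12.13, 11.75, 12.16, 11.77 and 12.10 in mice given both, and its interval was -0.32 to 0.32. Untreated mice had 11.19 to 11.56. The spot gene5028, the other one named by the rule, had 8.13, 7.69, 7.93, 7.92 and 7.73 against 8.25, 8.26, 8.25, 8.13 and 8.44. It was called over the diets through the flaxseed-fed mice, with a radiation difference of 0.93 in these and of 0.03 in mice without flaxseed (limma adjusted p = 0.925), so it is no case of a radiation response on which to compare the diets. Untreated mice had 7.74 to 7.89. In gene5028 both groups held a mouse at 8.13, and the difference of 0.39 did not pass the test (SE 0.0882, limma adjusted p = 0.306).

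Averaged over the 14 spots that radiation lowered at least 2-fold, the log2 level was 9.91, 10.14, 10.30, 9.91 and 9.71 in irradiated mice and 10.08, 10.69, 9.71, 9.49 and 10.06 in mice given both. Flaxseed-fed mice included both the highest and the lowest of the 10. Untreated mice had 11.06 to 11.55. These spots were chosen with the irradiated mice of both groups together, so that they were lower than in untreated mice is no finding here.

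Whether flaxseed acted differently in irradiated and unirradiated lung was tested as an interaction, which compares mice given both with irradiated mice and, separately, mice on flaxseed with untreated mice. It was called for 11 spots (0.115%) with limma, 9 positive (0.0938%) and 2 negative (0.0208%), and 1280 spots (13.3%) had an unadjusted p under 0.05. The count ran from 4 to 73 under other settings and from 2 to 35 when 1 mouse was left out, so the number of such spots is loosely set. In all 9 positive spots the difference was above 0 in irradiated and below 0 in unirradiated mice. It ran from 0.08 to 1.14 in the former and from -1.57 to -0.33 in the latter. The spots were selected for a large gap between these differences, which favours opposite signs, so the signs are no separate finding. Opposite signs occurred in 56.2% of all spots. Only gene0020 of the 11 was called within irradiated mice, while 9 were among the 41 spots (0.427%) called within unirradiated mice.

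In gene0020 the flaxseed difference was 1.14 with and -1.57 (SE 0.154) without radiation, an interaction of 2.71 (SE 0.217, limma adjusted p = 7.04e-07). The size depended on the treatment of background. It was 1.29 when the offset was 200, and 6.68 in log2 values of the authors' deposited table, and the call was made in all 14 other settings. One mouse on flaxseed alone had a signal of 30.1 over a background of 36.7 at gene0020, so it was not above background there, and the authors' deposited table lists it at the constant 0.002. In gene5028 it was 0.39 with and -0.51 without radiation (SE 0.0882 each), an interaction of 0.90 (SE 0.125, limma adjusted p = 0.00287), and the 5 mice on flaxseed alone had levels of 7.21 to 7.51, below all 15 others. The negative interaction of gene3400 was -0.85 (SE 0.150, limma adjusted p = 0.0322), with a difference of -0.23 with and 0.61 without radiation. That of gene8217 was -1.0 (SE 0.189, limma adjusted p = 0.0408), from -0.64 and 0.36. After local centring the last 2 were -0.66 and -0.69, each with a limma adjusted p of 0.0529.

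Over all 9600 spots, which are not independent replicates and share position on the array, the flaxseed differences with and without radiation correlated at Pearson's r = -0.18 and Spearman's rho = -0.178. The 2 comparisons share no mice, although all 20 arrays were normalised together. They had opposite signs in 5392 spots, or 56.2%. After local centring r was -0.189 and 55.8% had opposite signs. The median size of the difference was 0.0985 in irradiated and 0.109 in unirradiated mice. Arrays of mice on flaxseed alone had a median net signal of 158 to 184, of which 3 lay above all of the other 15 arrays, at 84.6 to 177. Of those 15 arrays, 2 exceeded 158. With array brightness in the model the interaction was called for 4 spots. The part of brightness in the interaction was not tested further.

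**Figure D4:**
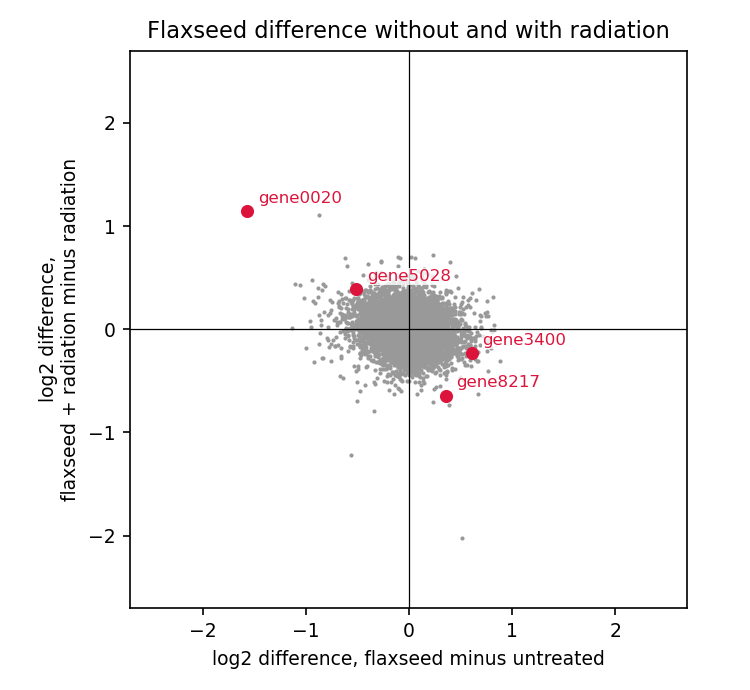
Log2 difference between flaxseed and no flaxseed in irradiated mice (vertical axis) against that in unirradiated mice (horizontal axis), 1 point per spot. The 4 red points are the named spots of the interaction, of which gene0020 lies farthest out at 1.14 and -1.57.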

How the data were processed

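Per the file headers, the deposited files hold for each spot the median intensity of its signal and of the local background, on a linear scale and without normalisation. The authors' deposited table of the series holds intensity values that equalled signal minus background over the array median in 100% of values other than a constant of 0.002, within 1e-04, and the constant made up 4.18% of values. Image software is not given in the sources used. Groups follow the treatment labels, and replicates are separately numbered mice.

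Signals were corrected with normexp (offset 50), log2 transformed and quantile normalised. All 20 arrays entered 1 fit in limma 3.58.1 (R 4.3.3) that had a coefficient for each group, with eBayes and Benjamini-Hochberg adjustment over 9600 spots per comparison and no filter. Errors are limma SE or SD over 5 mice, and the number of arrays limits the precision. The fit was also run on simulated data with independent noise per spot, unlike the correlated neighbours seen here, and no result rests on that run. With no gene names, the rule took per comparison the 2 spots with the smallest p in each direction, and planned lists of genes and cell type markers were not used. The comparison, lists and rule were chosen with earlier results of these data known. The 15 other settings and the omission of each mouse are reported in the closing section.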

Additional observations from a re-analysis of the deposited data

Results flagged for a closer look

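Among 38 groups of 5 values examined for a single distant mouse, 2 held one, where chance flags about 1 in 20 groups. That rate does not apply to gene7225, which was examined because 1 mouse gave it a 2-fold difference. The spot had a log2 level of 11.7 in the third irradiated mouse, against 5.67 to 6.39 in the other 4. The fifth array of the mice given flaxseed and radiation had a mean correlation of 0.972 with its group, against 0.976 to 0.977 for the other 4. Without this array gene0020 was the 1 called spot, as with it. Among the unirradiated arrays in the fit, the fourth of the mice on flaxseed alone had a mean correlation of 0.96 with its group, against 0.971 to 0.973 for the other 4. Its median deviation from the group mean was 0.173, against 0.116 to 0.129. Without that array the interaction was called for 10 spots, against 11 with it.

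The flaxseed difference itself differed between irradiated and unirradiated mice in 4 named spots, by the interaction term of limma. These were gene0020 with 2.71, gene5028 with 0.90, gene3400 with -0.85 and gene8217 with -1.0 on the log2 scale, the adjusted p being 7.04e-07, 0.00287, 0.0322 and 0.0408. The first 2 were called in all 20 fits that left out 1 mouse. The call of gene3400 was made in 13 and that of gene8217 in 4 of those 20 fits. Under 14 other settings gene3400 was called in 12 and gene8217 in 7.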

How the results depend on the processing

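In the irradiated comparison gene0020 was the 1 called spot in each of 10 fits that left out 1 mouse and in 13 of 15 other settings, and 0 spots were called on the authors' table and with plain subtraction. Its difference kept its direction throughout, from 0.54 to 2.32, and from 1.09 to 1.22 without 1 mouse. The spots gene2515, gene8217 and gene5130 kept theirs and were called in none of these fits. The interaction, called for 11 spots, was called for 6 with plain subtraction, 6 with an offset of 200, 4 with array brightness as a covariate, 30 with 75th percentile scaling, 31 with local centring, 50 with median scaling and 73 on the authors' table, and for 2 to 35 without 1 mouse. The 35 came without the fifth mouse on flaxseed alone, and 2 without the fifth irradiated or the first mouse given both treatments. The cause of these changes was not tested.

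Of the unadjusted calls in irradiated mice 43.2% were higher, and 35.7% with 75th percentile and 62.9% with median scaling, where the median of all spots was 0.0444. For whole arrays, with exact permutation tests, the difference in the percentage of spots above background was -0.429 (p = 0.0635) for means and -0.427 (p = 0.0476) for medians. Of the differences far from any threshold, that in mean correlation was -0.00119, or 7.02e-05 for medians. That in median deviation from the group mean was 0.00129, or -0.00113 for medians, and -0.000354 to 0.00272 without 1 mouse. That in median background was 1.02, and -0.824 to 3.2 without 1 mouse. No paired analysis was possible because the mice carry separate numbers and no label pairs them. Between 97.6% and 98.7% of spots were above background, and for dim spots the treatment of background limits what can be said of size.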

Other observations

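Spots at the limit of detection gave little sign of transcripts present in 1 irradiated group and absent in the other. Signal exceeded local background on all 10 irradiated arrays in 9052 spots (94.3%). In no spot, a count of 0, was the signal above background in all 5 mice of one group and in none of the other. The numbers of mice above background differed by 4 in 7 spots, with more flaxseed-fed mice above it in 3 and fewer in 4. Over all spots, flaxseed-fed mice were more often above background in 146 and less often in 288. The percentage of spots above background per array was 98.3 ± 0.336 (SD, n = 5) without and 97.9 ± 0.272 (SD, n = 5) with flaxseed, a difference that did not pass after adjustment (exact permutation p = 0.0635, adjusted p = 0.19).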
